A study of Mus musculus with 6 samples.

Results

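Secreted signals of the esophageal epithelium were examined in basal cells sorted by a Krt15 reporter. The 10 genes are Rarres2, which encodes chemerin; Saa3, a serum amyloid A; the IL-1 family genes Il33, Il18, Il1a and Il1rn; the cytokine gene Tslp; and the chemokine genes Cxcl14, Cxcl16 and Ccl20. They are 10 of the 24043 rows of the deposited expression table. Of these, 8 were listed by function, although earlier results of these data were known when the 10 were chosen. Rarres2 and Saa3 were chosen by their low values in the GFP-positive libraries, so their values are given as a description with no test. All mice carried the Krt15-CrePR1 transgene, an RU486-inducible Cre recombinase driven by the Krt15 promoter, and the R26mTomato/mGFP reporter, which switches to membrane GFP after recombination. All received 1 mg of RU486 (mifepristone), and basal esophageal epithelial cells were sorted 24 h later. The Krt15-negative group (CD29high GFP-) and the Krt15-positive group (CD29high GFP+) had 3 libraries each, where CD29 is integrin beta-1, used as the basal marker. GFP marks cells in which the Cre had acted, so a GFP- cell need not lack Krt15. The labels give no age, sex or strain, and do not say whether the libraries came from separate mice, so p-values measure only the spread between these libraries.

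Epithelia hold some of these signals ready for release. IL-33 and IL-1α sit in the nucleus or cytoplasm and act as alarmins when a cell is damaged, whereas IL-18 is made as a precursor that caspase-1 cleaves. IL-1 receptor antagonist, encoded by Il1rn, occupies the IL-1 receptor without starting a signal, and TSLP acts on dendritic cells and lymphocytes in type 2 inflammation. CCL20 attracts CCR6-bearing cells, CXCL16 exists as a membrane-bound and a shed ligand of CXCR6, and CXCL14 is a chemokine of resting epithelia. Chemerin is secreted as a precursor, is activated by proteases and attracts CMKLR1-bearing leukocytes. Saa3 is the serum amyloid A gene that mouse tissues outside the liver express in inflammation.

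The libraries differed in ways that touch these genes. Values are FPKM, fragments per kilobase of transcript and per M mapped fragments (M, mega), the scale on which levels of different genes are set side by side here. Depth, estimated from the smallest step in the values, was 27.6 to 41.6 M fragments. The Krt15-negative replicate 1 library stood apart: 3247 genes reached 1 FPKM in it, against 6906 to 9194 in the other 5. The 9423 genes whose mean reached 1 FPKM were tested, and of these 58.6% lay below 0.1 FPKM in that library and 8.05% to 24.7% in the others. Both replicate 1 libraries held airway secretory transcripts, with summed airway and alveolar markers of 84459.6 FPKM (Krt15-negative) and 141190 FPKM (Krt15-positive) against 0.199 to 16.7 FPKM in the other 4. All 10 basal keratinocyte markers were detected in both groups, although Trp63, the basal transcription factor p63, was at 0.459 FPKM in Krt15-negative replicate 1 and at 30.8 to 87.2 FPKM elsewhere. Itgb1, the gene of CD29, was at 1.03 FPKM in that library and at 10.8 to 43.3 FPKM elsewhere. Basal markers summed to 3904 to 14143 FPKM over the libraries. Suprabasal keratinocyte markers summed to 8919 to 53108 FPKM, above the basal sum in every library. Krt15 itself was at 2350.2 to 6784 FPKM in Krt15-negative and 2419.5 to 9692 FPKM in Krt15-positive libraries, and the groups overlapped. An exact 0 can be a failed estimate: Krtdap, a keratinocyte differentiation gene, had a 0 in Krt15-negative replicate 3 but 7254 to 41287 FPKM elsewhere.

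Rarres2 was well above background in every Krt15-negative library and listed at or near 0 in the Krt15-positive ones. Its level was 164 FPKM, 52.4 FPKM and 262 FPKM in Krt15-negative replicates 1 to 3. It was listed at 0, 1.7e-08 and 0 FPKM in Krt15-positive replicates 1 to 3. The groups did not overlap. By the depth estimates, the Krt15-negative values correspond to about 3489, 1593 and 7586 fragments, whereas a single fragment would have given 0.0402 to 0.0496 FPKM in the Krt15-positive libraries. The listed 1.7e-08 FPKM lies far below that and is no fragment count. As for Krtdap, a listed 0 can be a failed estimate, and whether it was so here was not tested. On the log2(FPKM + 1) scale the group means were 7.05 for Krt15-negative and 0.00 for Krt15-positive libraries, a difference of −7.05 (Krt15-positive minus Krt15-negative, as in all differences here). The size of that number follows the pseudocount: it was −10.36 with 0.1 FPKM added in place of 1 and −4.78 with 5. It was −6.89 when both replicate 1 libraries were left out, an alternative added after seeing the data. The library chemistry does not mark strand, and 892 of the 2656 exonic bases of Rarres2 overlap Lrrc61 on the opposite strand, so reads of the 2 genes could be exchanged. Lrrc61 was at 0.622, 12.3 and 1.80 FPKM in Krt15-negative and 0.210, 9.34 and 0 FPKM in Krt15-positive replicates 1 to 3, without the separation seen for Rarres2.

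Saa3 was the most abundant of the 10 genes in 2 libraries and near 0 in the other 4. It reached 1053 FPKM in Krt15-negative replicate 1 and 1319.6 FPKM in replicate 3. In Krt15-negative replicate 2 it was at 0.0588 FPKM, about 1.36 fragments. In Krt15-positive replicates 1 to 3 it was listed at 0, 0 and 0.242 FPKM, the last being about 4.01 fragments. The Krt15-negative group therefore spanned nearly the whole range of the gene, and its lowest library lay below the highest Krt15-positive one, so the groups overlapped. The difference of group means was −6.73 on the log2(FPKM + 1) scale. It ran from −4.96 without Krt15-negative replicate 3, and −5.12 without Krt15-negative replicate 1, to −10.10 without Krt15-negative replicate 2, and was −5.07 when both replicate 1 libraries were left out.

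Because counting can divide fragments among near-identical genes, Saa3 was compared with its acute-phase paralogs Saa1 and Saa2, which the liver secretes into blood. The first 90 coding bases show how readily the transcripts can be told apart. They are given 5′ to 3′ from the GENCODE transcripts (GRCm38), and capitals mark bases that differ from Saa3, 44 in each paralog.
Saa3: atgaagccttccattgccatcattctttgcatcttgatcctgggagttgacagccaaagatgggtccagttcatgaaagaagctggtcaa
Saa1: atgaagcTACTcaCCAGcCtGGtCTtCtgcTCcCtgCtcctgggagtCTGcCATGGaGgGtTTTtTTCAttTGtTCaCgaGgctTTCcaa
Saa2: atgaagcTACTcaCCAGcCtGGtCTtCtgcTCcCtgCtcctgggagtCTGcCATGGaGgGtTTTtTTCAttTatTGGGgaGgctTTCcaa
Over the aligned coding sequence Saa3 was identical to Saa1 at 76.2% of bases and to Saa2 at 74.5%, with longest identical runs of 58 and 41 bases, while Saa1 and Saa2 were identical at 95.1%. Saa1 was listed at 0.418, 0 and 0.615 FPKM in Krt15-negative replicates 1 to 3 and at 0 in all 3 Krt15-positive libraries. Saa2 was listed at 0, 0.0488 and 0.306 FPKM in Krt15-negative and 0, 0.0592 and 0 FPKM in Krt15-positive libraries. Both paralogs thus stayed below 1 FPKM in the libraries where Saa3 exceeded 1000 FPKM.

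Promoter windows, the 250 bases before the annotated start from the RefSeq table for GRCm38.p6, were available for 7 of the 10 genes, 10 windows in all because Il1rn had 3 and Il33 had 2. They were searched on both strands for 4 motifs chosen after the values were seen, and a match is a description of the letters only. TTGCNNAA, a form of the C/EBP binding sequence, was in 9.56% of all 32851 windows and in 2 of these 10, that of Saa3 and 1 of Il33. The NF-kappa-B consensus was in 7.25% of all windows and in 1 of the 10, that of Ccl20. TATAAA was in 12.4% of all windows and in 4 of the 10, those of Il1a and Il18 and both of Il33. TGANTCA, the AP-1 sequence, was in 6.75% of all windows and in 2 of the 10, that of Il1a and 1 of Il1rn. The windows of Saa3 and Ccl20 are shown because both genes are textbook targets of inflammatory signalling and both went from 0 to 10 FPKM or more between libraries. The first lies at chr7:46715677-46715926 on the minus strand and the second at chr1:83116516-83116765 on the plus strand, with capitals marking TTGCNNAA in Saa3 (bases −99 to −92 from the start) and the NF-kappa-B consensus in Ccl20 (−80 to −71).
Saa3 promoter: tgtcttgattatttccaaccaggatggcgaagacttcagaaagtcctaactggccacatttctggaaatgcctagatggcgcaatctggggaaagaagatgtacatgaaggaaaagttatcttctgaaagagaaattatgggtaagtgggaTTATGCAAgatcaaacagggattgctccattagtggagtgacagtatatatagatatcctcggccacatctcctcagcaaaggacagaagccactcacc
Ccl20 promoter: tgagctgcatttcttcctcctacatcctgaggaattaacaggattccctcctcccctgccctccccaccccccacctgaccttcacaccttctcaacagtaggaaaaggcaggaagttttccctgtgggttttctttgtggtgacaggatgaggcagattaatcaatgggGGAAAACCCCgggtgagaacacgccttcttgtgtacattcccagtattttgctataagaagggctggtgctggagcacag
The same TTGCNNAA sequence was in the windows of Saa1 (−182 to −175) and Saa2 (−183 to −176), whose genes stayed below 1 FPKM in these libraries.

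**Figure D1:**
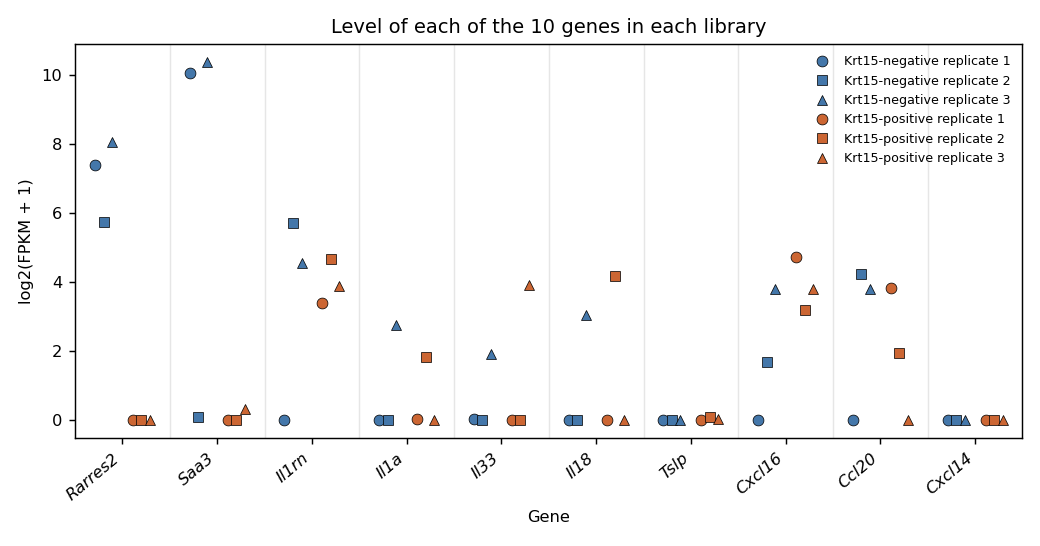
Level of each of the 10 genes, as log2(FPKM + 1) on the y axis, in the 3 Krt15-negative libraries (blue) and the 3 Krt15-positive libraries (orange), with 1 point per library and a marker shape per replicate number. Rarres2 is high in all 3 blue points and at 0 in the orange ones, Saa3 is high in 2 of 3 blue points, and the other 8 genes overlap between groups.

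The Krt15-positive libraries, in which Rarres2 and Saa3 were at or near 0, were also low in most fibroblast markers. Krt15-negative replicate 2, near 0 for Saa3 alone of the pair, was not, with a fibroblast marker sum of 431 FPKM. Of that sum, 267 FPKM was Dcn (decorin). The summed level of 13 fibroblast markers was 196 to 809 FPKM in Krt15-negative and 72.5 to 192 FPKM in Krt15-positive libraries. Of these, 11 had a lower median in the Krt15-positive group and 10 were below 0.1 FPKM in all 3 of its libraries. The list was chosen with earlier results of these data known, so these counts are a description only. Over all genes tested, 2956 of 9423 had a lower mean of log2(FPKM + 1) in the Krt15-positive group. That measure differs from those of the marker counts, whose shares over all genes were not counted. Most of the Krt15-positive sum was also Dcn, for which the groups overlapped. Dcn was at 13.9, 267 and 457 FPKM in Krt15-negative and 167, 176 and 71.1 FPKM in Krt15-positive replicates 1 to 3. Without Dcn, a split made after seeing the values, the sums were 163 to 352 FPKM against 1.38 to 15.8 FPKM. The lowest Krt15-negative sum, 163 FPKM, was that of replicate 2. Lum and Postn were listed at 0 in that library, as in the Krt15-positive ones, whereas Dpt and Mfap5 were at 28.3 and 49.3 FPKM in it. The 7 adipocyte markers summed to 0 to 5.32 FPKM and 0 to 2.07 FPKM, and 4 of them, Adipoq, Plin1, Cfd and Lep, were below 0.1 FPKM in every library. Mesothelial markers summed to 0 to 42.1 FPKM and 0 to 114 FPKM, with Upk3b and Gpm6a below 0.1 FPKM in all 6. The 2 most abundant, Msln and Upk1b, were at 63.9 and 45.0 FPKM in Krt15-positive replicate 1, at 7.78 and 30.5 FPKM in Krt15-negative replicate 3, and listed at 0 in the other 4. Macrophage and monocyte markers summed to 260 to 677 FPKM and 56.0 to 7541 FPKM, the highest being Krt15-positive replicate 1, where Rarres2 and Saa3 were listed at 0. Nearly all of that highest sum was Lyz2, at 7279 FPKM, and Cd14, at 260 FPKM. Each of the other macrophage and monocyte markers was at or below 1.27 FPKM in Krt15-positive replicate 1. Tyrobp, for example, was at 203, 124 and 31.0 FPKM in Krt15-negative and 0, 20.2 and 27.6 FPKM in Krt15-positive replicates 1 to 3. Its groups did not overlap, whereas those of Lyz2 and Cd14 did. Of the 12 macrophage and monocyte markers, 7 had a lower median in the Krt15-positive group, and the share over all genes was likewise not counted. The part of any of these cell types in the Rarres2 and Saa3 values was not tested. In sorted bulk cells, fewer cells of a type and less RNA per cell cannot be told apart.

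**Figure D2:**
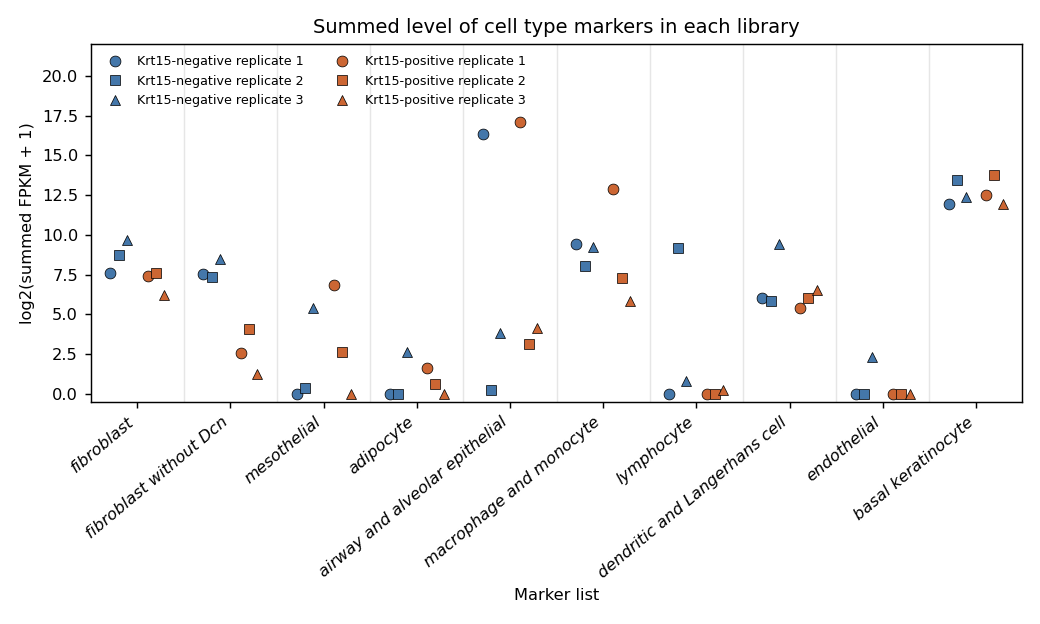
Summed FPKM of marker lists, as log2(sum + 1) on the y axis, with 1 point per library (blue Krt15-negative, orange Krt15-positive, shapes for replicate numbers). The suprabasal keratinocyte and neutrophil lists are not drawn. Fibroblast markers without Dcn separate the groups, the airway list is high in both replicate 1 libraries, and basal keratinocyte markers are high in all 6.

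The genes with the pattern most like Rarres2 and Saa3 were taken as the 5 with the highest Pearson r of log2(FPKM + 1) over the 6 libraries, among 4186 genes whose mean reached 10 FPKM. The r values describe 6 points that share their group and depth, and no p was computed. For Rarres2 they were Dpt (r = 0.99), Cd302 (0.99), Mfap5 (0.99), Fxyd1 (0.99) and Col3a1 (0.97). Dpt, Mfap5 and Col3a1, which encode extracellular matrix proteins, are also in the fibroblast marker list. As that list was chosen with earlier results of these data known, the shared genes are no independent support. Dpt was at 30.7, 28.3 and 46.6 FPKM in Krt15-negative and 0, 0.0186 and 0 FPKM in Krt15-positive libraries.

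For Saa3 the likest gene was Inmt, an amine N-methyltransferase, with r = 0.99. Inmt was at 77.2, 0 and 32.2 FPKM in Krt15-negative replicates 1 to 3 and listed at 0 in all 3 Krt15-positive libraries. It thus shared with Saa3 the low value of Krt15-negative replicate 2, which Rarres2 did not have. The next were Fkbp3 (r = 0.96), Cox7a2 (0.96), S100a10 (0.95) and Sprr2b (0.95), whose levels moved over a much narrower range. Fkbp3, for example, was at 686, 250.1 and 489 FPKM in Krt15-negative and 259.9, 224 and 235 FPKM in Krt15-positive libraries.

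**Figure D3:**
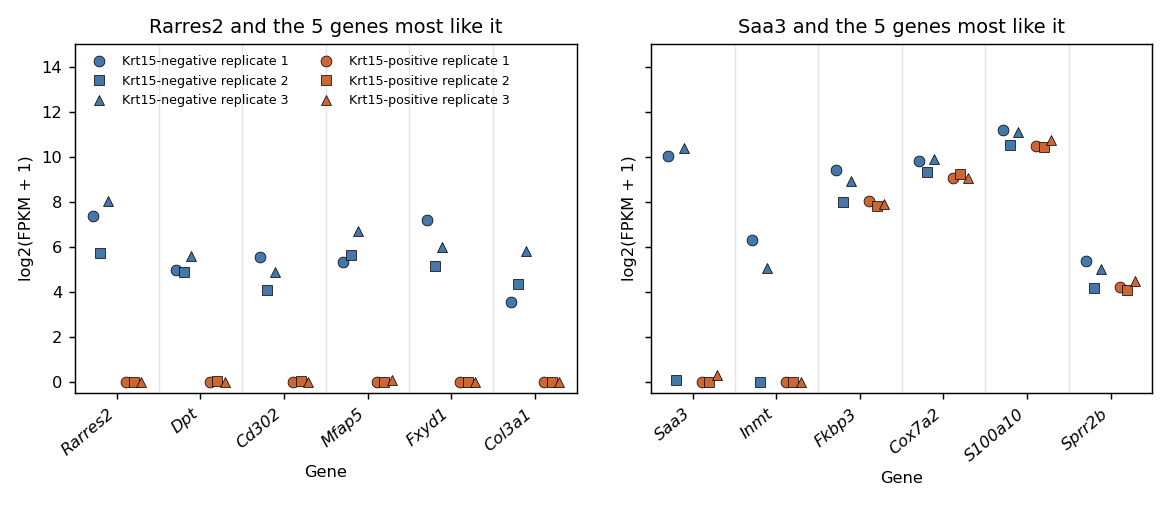
Levels, as log2(FPKM + 1) on the y axis, of Rarres2 (left) and Saa3 (right) with the 5 genes of highest Pearson r over the 6 libraries, 1 point per library. The left panel's genes are all near 0 in the 3 Krt15-positive libraries, and in the right panel only Saa3 and Inmt fall to near 0.

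Across all genes, limma on log2(FPKM + 1) called 0 of 9423 at a Benjamini-Hochberg adjusted p below 0.05 (percent called 0). The lowest adjusted p was 0.40, and 370 genes, of which 300 were higher and 70 lower in Krt15-positive libraries, had an unadjusted p below 0.05. The groups did not overlap for 834 genes with Krt15-positive higher (8.85%) and for 230 with Krt15-positive lower (2.44%). The differences were shifted as a whole: their median was 0.63 and 68.6% lay above 0. Without Krt15-negative replicate 1 that median was 0.02. Against this background, 8 of the 10 genes passed the filter on low values, Tslp and Cxcl14 being below it. Of the 6 tested that were listed by function, 0 were called, 0 had an unadjusted p below 0.05, and all 6 overlapped between groups.

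Of the 4 IL-1 family members, Il1rn reached 1 FPKM in the most libraries, 5 of 6. The antagonist's gene was at 0, 50.9 and 22.2 FPKM in Krt15-negative replicates 1 to 3 and at 9.47, 24.1 and 13.7 FPKM in Krt15-positive replicates 1 to 3. The Krt15-negative group held both its lowest and its highest value, and the groups overlapped. The difference was 0.56 (SE 1.46, 95% CI −2.64 to 3.76, limma adjusted p = 0.93). Its direction turned, to −1.15, without Krt15-negative replicate 1, and it was −0.85 with both replicate 1 libraries left out.

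Il1a, the gene of IL-1α, was above 1 FPKM in 1 library of each group. It was at 0, 0 and 5.78 FPKM in Krt15-negative and 0.0188, 2.53 and 0 FPKM in Krt15-positive libraries, 0.0188 FPKM being about 1.02 fragments. The difference was −0.30 (SE 1.00, 95% CI −2.50 to 1.89, limma adjusted p = 0.95). It became 0.62 without Krt15-negative replicate 3 and 0.0032 without Krt15-positive replicate 3. Il1a shares 222 exonic bases with the opposite-strand gene Gm14023, which was at or below 0.450 FPKM throughout. Il1rn lay above Il1a in 5 of 6 libraries, the exception being Krt15-negative replicate 1, where both were listed at 0.

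Il33 and Il18 were likewise above 1 FPKM in 1 library of each group, both in Krt15-negative replicate 3 but in different Krt15-positive libraries. Il33, the nuclear alarmin gene, was at 0.0137, 0 and 2.77 FPKM in Krt15-negative and 0, 0 and 13.9 FPKM in Krt15-positive libraries, so its values above 1 FPKM were those of the 2 replicate 3 libraries. Its difference was 0.66 (SE 1.18, 95% CI −1.92 to 3.24, limma adjusted p = 0.89), and −0.64 without Krt15-positive replicate 3. Il18 was at 0, 0 and 7.22 FPKM in Krt15-negative and 0, 17.0 and 0 FPKM in Krt15-positive libraries. Its difference was 0.38 (SE 1.33, 95% CI −2.55 to 3.30, limma adjusted p = 0.95), and −1.01 without Krt15-positive replicate 2. The Il18 difference was also below 0, at −0.13, without either Krt15-negative replicate 1 or replicate 2.

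Tslp was barely detected. All 3 Krt15-negative libraries listed it at 0. Krt15-positive replicates 1 to 3 held 0, 0.0559 and 0.0317 FPKM, the last 2 being about 2.14 and 1.07 fragments. It failed the filter on low values and was not tested.

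The receptor side of the IL-1 system was dominated by Il1r2, the decoy receptor that binds IL-1 without signalling. Il1r2 was at 385, 459.8 and 363 FPKM in Krt15-negative and 205, 378 and 777 FPKM in Krt15-positive libraries (difference −0.03, SE 0.55). Il1r1, the signalling receptor, was at 0.0287, 0 and 1.91 FPKM and at 3.89, 2.76 and 0.993 FPKM in the same order. Il1r2 exceeded Il1r1 in 6 of 6 libraries. Il1rap, the shared accessory chain, was at 0.0298, 22.3 and 5.56 FPKM in Krt15-negative and 3.13, 3.07 and 0.774 FPKM in Krt15-positive libraries. Ccrl2, a chemerin-binding receptor, was at 10.03 FPKM in Krt15-negative replicate 3 and listed at 0 in the other 5. Of 18 receptor genes of the 10 ligands, 10 stayed below 1 FPKM in every library and 5 were tested, 1 with a difference above 0 and 4 below, with a median of −0.34 and 0 called.

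Of 7 other IL-1 family genes, Il1f9 alone was tested. This gene encodes IL-36γ and was at 72.9, 0 and 21.3 FPKM in Krt15-negative and 5.57, 3.59 and 17.1 FPKM in Krt15-positive libraries (difference −0.53, SE 1.55, limma adjusted p = 0.94). It was higher than Il1a in 5 of 6 libraries and the groups overlapped. Il1b was at 2.5 FPKM in Krt15-negative replicate 3, the library with the highest Il1a, and below 0.1 FPKM in the other 5.

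**Figure D4:**
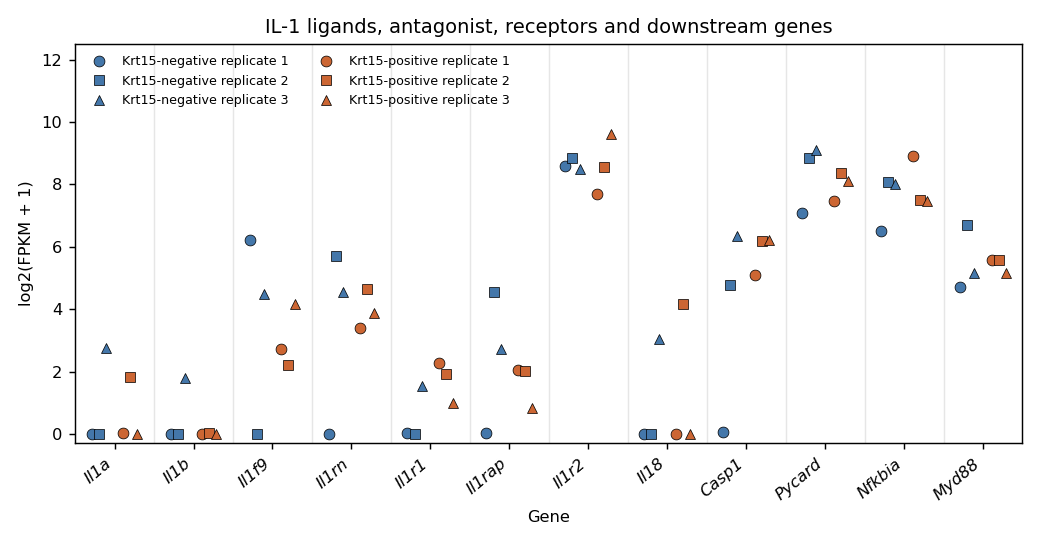
Levels, as log2(FPKM + 1) on the y axis, of IL-1 family ligands, the antagonist Il1rn, IL-1 receptors and downstream genes, with 1 point per library (blue Krt15-negative, orange Krt15-positive, shapes for replicate numbers). Il1r2, Pycard and Nfkbia are high in all 6 libraries, whereas Il1a, Il1b and Il18 are at or near 0 in at least 4 of 6.

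Of 22 genes that process these ligands, 10 stayed below 1 FPKM in every library. The test covered 11, 8 with a difference above 0 and 3 below, with a median of 0.48 (0.63 over all genes) and 0 called. Casp1, the protease that activates IL-18, was at 0.0479, 26.2 and 79.8 FPKM in Krt15-negative and 33.5, 72.5 and 73.0 FPKM in Krt15-positive libraries. Its difference was 2.12 (SE 1.45, 95% CI −1.07 to 5.30, limma adjusted p = 0.79), with the groups overlapping. Casp4, the sensor caspase of the noncanonical inflammasome, was at 20.9, 0 and 5.80 FPKM and at 10.3, 11.5 and 43.9 FPKM in the same order. Pycard, the ASC adaptor, was at 135 to 554 FPKM in Krt15-negative and 176 to 331 FPKM in Krt15-positive libraries. Of the lysosomal proteases, Ctsl was at 43.6 to 113 FPKM and 39.97 to 110.4 FPKM, while Ctss was at 37.1 FPKM in Krt15-negative replicate 3 and below 0.5 FPKM in the other 5. Casp1 and Pycard were thus both at 26.2 FPKM or more in 5 of 6 libraries, while Il18 was above 1 FPKM in 2.

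The chemokine Cxcl16 had the largest difference of the 6 tested genes listed by function. It was at 0, 2.2 and 12.8 FPKM in Krt15-negative and 25.3, 8.13 and 12.8 FPKM in Krt15-positive replicates 1 to 3. All 3 Krt15-positive libraries held it, and Krt15-negative replicate 3 lay within their range. The difference was 2.08 (SE 1.27, 95% CI −0.69 to 4.85, limma adjusted p = 0.79), or 1.45 above the median of all genes. Leaving out Krt15-negative replicate 1 gave 1.17, and leaving out both replicate 1 libraries gave 0.76. Cxcl16 shares 552 exonic bases with the opposite-strand gene Zmynd15, which was at or below 0.0666 FPKM in every library.

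Ccl20 was at 0, 17.7 and 12.8 FPKM in Krt15-negative and 13.2, 2.87 and 0 FPKM in Krt15-positive libraries. Each group held a library at 0 and a library above 12 FPKM, and the groups overlapped. The difference was −0.74 (SE 1.46, 95% CI −3.94 to 2.46, limma adjusted p = 0.90). It became 0.22 without Krt15-positive replicate 3 and 0.03 without Krt15-negative replicate 2, but −2.08 without Krt15-negative replicate 1 and −3.03 with both replicate 1 libraries left out. Cxcl14 was listed at 0 in all 6 libraries. The 6 intervals were wide: that of Ccl20 ran from −3.94 to 2.46, and each of the other 5 also held 0.

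**Figure D5:**
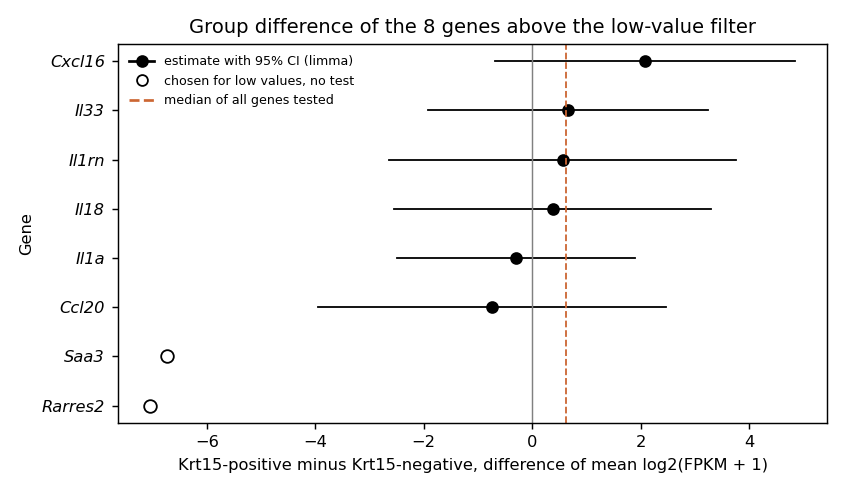
Difference of mean log2(FPKM + 1), Krt15-positive minus Krt15-negative, on the x axis for the 8 genes above the low-value filter, with 95% confidence intervals from limma for the 6 listed by function (filled circles) and no interval for Rarres2 and Saa3 (open circles), which were chosen for their low values. All 6 intervals cross 0, and the dashed line is the median of all genes tested, 0.63.

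The order of the 10 genes by median, per length, is given for each group as a description, since Rarres2 and Saa3 were chosen for being low in Krt15-positive libraries. In Krt15-negative libraries the medians were 1053 FPKM for Saa3, 164 for Rarres2, 22.2 for Il1rn, 12.8 for Ccl20 and 2.2 for Cxcl16, with the other 5 below 0.1 FPKM. The ranges of Saa3 and Rarres2 overlapped, as did those of Il1rn, Ccl20 and Cxcl16, whereas the lowest Rarres2 value, 52.4 FPKM, was just above the highest Il1rn value, 50.9 FPKM. In Krt15-positive libraries the medians were 13.7 FPKM for Il1rn, 12.8 for Cxcl16 and 2.87 for Ccl20, with overlapping ranges, and the other 7 were below 0.1 FPKM. By library, 2, 4 and 8 of the 10 genes reached 1 FPKM in Krt15-negative replicates 1 to 3, and 3, 5 and 3 in Krt15-positive ones. Krt15-negative replicate 3 thus held the most of these transcripts, and it lacked Tslp and Cxcl14 alone. Dendritic and Langerhans cell markers also had their highest sum there, 685 FPKM. Their sums were 64.1 and 56.1 FPKM in Krt15-negative replicates 1 and 2 and 41.0 to 90.5 FPKM in Krt15-positive libraries. The part of such cells in the values of this library was not tested.

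Other acute phase genes showed no common direction. Of 13 listed, 9 stayed below 1 FPKM in every library and 4 were tested, 2 with a difference above 0 and 2 below, with 0 called. C3, the central complement component, was at 35.2, 6.96 and 12.3 FPKM in Krt15-negative and 3.96, 0.00555 and 0 FPKM in Krt15-positive libraries. The C3 groups did not overlap, as was so for 2.44% of all genes in that direction, and the difference was −3.19 (SE 1.20, 95% CI −5.83 to −0.56, limma adjusted p = 0.79). Unlike Saa3, C3 was present in Krt15-negative replicate 2. Hp (haptoglobin) went the other way, at 241, 4.24 and 0 FPKM in Krt15-positive libraries and 0 in all 3 Krt15-negative ones (limma adjusted p = 0.79). Cp (ceruloplasmin) was at 18.2 FPKM in Krt15-positive replicate 1, the library with the most airway transcripts, and below 0.1 FPKM elsewhere. Whether those airway transcripts bear on the Hp and Cp values was not tested.

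Of 29 other epithelial cytokine and chemokine genes, 12 were tested, 6 with a difference above 0 and 6 below, with a median of −0.09 and 0 called. Mif, the most abundant, was at 2997, 2295.5 and 3389 FPKM in Krt15-negative and 1919, 2044 and 2381.5 FPKM in Krt15-positive libraries (difference −0.44, SE 0.24, limma adjusted p = 0.79). Ccl7, a monocyte-attracting chemokine, was at 0, 369 and 32.4 FPKM in Krt15-negative replicates 1 to 3 and listed at 0 in the 3 Krt15-positive libraries (limma adjusted p = 0.79). Ccl27a, the skin-type chemokine also called CTACK, was at 13.2, 10.9 and 20.3 FPKM in Krt15-negative and 39.5, 30.9 and 88.0 FPKM in Krt15-positive libraries. The Ccl27a groups did not overlap, as was so for 8.85% of all genes in that direction, and the difference was 1.67 (SE 0.96, 95% CI −0.45 to 3.78, limma adjusted p = 0.79). Ccl27a values are uncertain because the gene has a near copy, Ccl27b, and overlaps Il11ra1 on the opposite strand. Cxcl17, a mucosal chemokine, was at 159 and 735 FPKM in the 2 replicate 1 libraries, the 2 with airway transcripts, and at or below 0.102 FPKM in the other 4.

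Genes of NF-kappa-B and MyD88 signalling, the route by which IL-1, IL-18 and IL-33 receptors act, were broadly detected. Of 25 listed, 20 were tested, 16 with a difference above 0 and 4 below, against 68.6% above 0 over all genes. Their median difference was 0.77 against 0.63 over all genes, 0 were called, and over the alternatives it ran from −0.10 to 1.73. Chuk, the kinase IKKα, was at 0, 0.40 and 3.68 FPKM in Krt15-negative and 2.14, 9.72 and 9.41 FPKM in Krt15-positive libraries (difference 1.91, SE 1.13, limma adjusted p = 0.79). Traf6, the ubiquitin ligase downstream of MyD88, was at 0 to 1.18 FPKM and 0.322 to 5.76 FPKM, and its partner Tab2 was at 0.00547 to 2.19 FPKM and 0.630 to 15.4 FPKM. Nfkbia, the inhibitor IκBα and itself a target of the pathway, was at 89.4, 267 and 258 FPKM in Krt15-negative and 477, 179.7 and 175 FPKM in Krt15-positive libraries (difference 0.43, SE 0.68). Myd88 was at 25.3 to 103 FPKM and 34.7 to 47.0 FPKM (difference −0.09, SE 0.91). All 5 of these genes overlapped between groups.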

How the data were processed

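Gene expression was taken from 1 deposited table of FPKM values (24043 rows, 6 libraries), made by the authors. The submitters' processing notes name the mm9 build, Cufflinks 2.2.1, STAR 2.5 and DESeq2 without saying what each did. Per the labels' protocols, libraries were made with SMART-Seq v4 directly from cells, without RNA extraction. Which annotation and filters were applied is not given in the sources used here. FPKM divides by transcript length. Medians were taken over single-transcript genes that reached 1 FPKM in the library. In Krt15-negative replicate 1 the median was 96.6 FPKM for those below 1000 bp and 7.41 FPKM for those above 4000 bp. The order was the same in the other 5, and whether this reflects the libraries or the genes was not tested.

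From these values, 27 rows whose symbols had become dates were left out, leaving 24016 genes. Genes whose mean reached 1 FPKM (9423) were tested on log2(FPKM + 1) with limma 3.58.1 (R 4.3.3; empirical Bayes with a mean-variance trend, group only, 2-sided, Benjamini-Hochberg adjustment, called below 0.05), after a test on simulated data. Fold changes are on that scale, which understates changes of low genes. The simulated data capped the spread of each gene at the median spread and changed only genes of higher level. They therefore do not show how the test performs on genes as low or as variable as these. Depth was estimated from the single-fragment step of 2176 single-transcript genes of at least 1500 bp. This depth covers counting error only.

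The members and the 6 pathway and 11 marker lists (215 symbols, 6 matched by synonym, 2 without a row) were chosen with earlier results of these data known. All 10 members are named. From each pathway list the 3 genes of smallest limma p and the 2 of highest mean FPKM among those tested are named, plus Saa1 and Saa2, the 5 genes likest Rarres2 and Saa3, and 2 to 4 markers. Il1b, Lrrc61, Gm14023, Zmynd15, Ccl27b, Il11ra1, Krtdap, Tyrobp, Lum, Postn and Itgb1 fall outside that rule and were named after their values were seen. Exon overlaps and coding sequences came from GENCODE for GRCm38 and promoters from RefSeq for GRCm38.p6. Because those builds differ from mm9, coordinates are given for the promoter windows alone. Alternatives were other pseudocounts, filters, scalings, weights, a replicate block and leaving out libraries.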

Additional observations from a re-analysis of the deposited data

How the results depend on the processing

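Over 17 alternatives, limma called 0 genes in each direction except with library weights. With them it called 8 of 9423 genes lower in Krt15-positive libraries (Rarres2, Fxyd1, Col3a1, Igfbp6, Mfap5, Dpt, Mgp and Serpinf1). The weights ran from 0.225 for Krt15-negative replicate 1 to 3.2 for Krt15-negative replicate 3. Rarres2 had been chosen on the same values, so its place among the 8 is no test of it. Genes whose groups did not overlap numbered, for Krt15-positive higher, 157 among genes whose mean reached 10 FPKM, 405 after quantile normalization and 1017 to 1793 when a library was left out. For Krt15-positive lower they numbered 74 after upper-quartile scaling, 463 after quantile normalization and 356 to 843 when a library was left out, where fewer libraries separate more easily. Quantile normalization also took the all-gene median difference to 0.04, and library weights took it to 0.17. Cxcl16 stayed above 0 in all 17 (0.71 to 3.28, limma adjusted p 0.60 to 0.98). Among them, the filters, the fit without a trend and the replicate block could not change its difference. Rarres2 was at −10.36 with a pseudocount of 0.1 and −4.78 with 5. Directions turned for 5 of the 6 tested genes: under quantile normalization and library weights respectively, Il33 to −0.31 and −0.51, Il18 to −0.13 and −0.93, and Il1rn to −0.014 and −0.52. Leaving out each library gave −0.64 to 1.31 for Il33, −1.01 to 1.39 for Il18, −0.91 to 0.62 for Il1a, −1.15 to 1.70 for Il1rn and −2.08 to 0.22 for Ccl20. Without both replicate 1 libraries, chosen after seeing the data, Il1rn was at −0.85. Other than fewer libraries, the cause of these changes was not tested. The submitters' sample names share a prefix between same-numbered libraries of the groups, with no meaning given. The deviations of same-numbered libraries correlated at 0.128, 0.168 and 0.00886, and those of differently numbered ones at −0.164 to 0.0286. Both replicate 1 libraries also shared the airway transcripts. Since 0.00886 was below 0.1, the numbers were not taken to pair the libraries, which leaves a shared origin possible. Within same-numbered libraries Cxcl16, picked for its largest difference, was at 25.3 against 0, 8.13 against 2.2 and 12.82 against 12.76 FPKM (Krt15-positive against Krt15-negative). The first pair rests on Krt15-negative replicate 1, where 58.6% of tested genes lay below 0.1 FPKM, and the last is nearly a tie. How many genes share this order was not counted. Since each replicate number is in both groups, a replicate block could change only the p of a difference. With it, Cxcl16 was at 2.08 (limma adjusted p 0.74), with 0 calls. Depth limits Tslp, whose values were about 2.14 and 1.07 fragments.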

Other observations

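Further chemokine and lymphocyte genes were high in single libraries, named here after their values were seen. In Krt15-negative replicate 2, the library with the highest Ccl7, Ccl2 was at 119 FPKM (14.99 FPKM in Krt15-positive replicate 2 and 0 in the other 4). In the same library Nkg7, a granule protein gene of cytotoxic lymphocytes, was at 459 FPKM, Cd2 at 58.9 FPKM and Gzmb (granzyme B) at 33.5 FPKM, and all 3 were below 0.1 FPKM in the other 5. Cxcl5, a neutrophil-attracting chemokine, was at 72.5 FPKM and Ccl25 at 14.7 FPKM in Krt15-positive replicate 1, and both were listed at 0 in the other 5. Ccl11 (eotaxin-1) was at 27.4 FPKM and Cxcl2 at 29.2 FPKM in Krt15-negative replicate 3, and both were listed at 0 in the other 5. Each of these is the value of 1 library, with no replicate of its kind.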
